A study of Mus musculus with 6 samples.

Results

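The genes described here take up and activate short-chain fatty acids such as butyrate, oxidize fatty acids in mitochondria and peroxisomes, handle ketone bodies, or belong to the regulators and targets of the peroxisome proliferator–activated receptors (PPARs). They were chosen by gene symbol, and all 37 were found among the 27202 genes of the table. Of these, 36 had a mean of at least 10 normalized counts over the 6 libraries and were tested together with the other genes that passed (16246 in all), whereas *Fabp1* did not pass. RNA was sequenced from the colon of mice that were 8 to 10 weeks old and had received 2% dextran sulfate sodium (DSS), a polymer that damages the lining of the colon, with their drinking water for 7 days. The genotype of the 3 cKO libraries was *Nedd4l fl/fl Villin Cre*, that of the 3 WT libraries, made from littermates, *Nedd4l fl/fl*, and the floxed and the Cre line were on a C57BL/6J background. In the former, the *Villin* promoter drives Cre in intestinal epithelial cells (IECs), so that *Nedd4l*, which encodes a ubiquitin ligase, is lost from the epithelium constitutively. The floxed alleles and the DSS were common to both genotypes, and a group without DSS was not analysed here. The labels speak of mice and littermates, and the p-values measure the spread between these 3 libraries of each genotype.

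Butyrate, which gut bacteria make from dietary fiber, is the main fuel of colonocytes, the absorptive cells of the colon. It is carried into the cell by monocarboxylate transporters, joined to coenzyme A, and broken down in the mitochondrion by the β-oxidation cycle. The cycle consists of dehydrogenase, hydratase, second dehydrogenase and thiolase. Electrons of the first dehydrogenase pass to the respiratory chain through electron transfer flavoprotein. Long-chain fatty acids enter the mitochondrion only when bound to carnitine, acetyl-CoA can be turned into ketone bodies or made from them, and PPARs with their coactivator PGC-1α switch on many of the genes involved.

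The targeted gene was examined first. *Nedd4l* (ENSMUSG00000024589) had 476, 942 and 566 normalized counts in cKO 1, 2 and 3, and 1241, 1271 and 1266 in WT 1, 2 and 3. All cKO libraries lay below all WT libraries, with cKO 2 the nearest to WT, and the log2 fold change was −0.99 (SE 0.24, n = 3 per genotype, limma, Benjamini-Hochberg adjusted p = 0.225). Over all genes cKO 2 correlated on average at r = 0.966 with the other cKO libraries and at 0.977 with the WT libraries. For cKO 1 these means were 0.963 and 0.948, the latter the lowest of any library with WT, and for cKO 3 they were 0.975 and 0.973. The totals, in units of the smallest step of each library, were 14914367 to 16202235 in cKO and 15893599 to 17547270 in WT. Epithelial markers such as *Epcam* and *Krt8* were abundant in every library. Their summed level was 212427, 248736 and 233858 normalized counts in cKO 1, 2 and 3 and 235287 to 253155 in WT. Only cKO 2 lay within the WT range, and cKO 1 and cKO 3 lay below it.

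No member passed the test between genotypes. With limma and Benjamini-Hochberg adjustment over the 16246 genes, 0 of 36 members and 0 genes in all (0.0%) had an adjusted p under 0.05. At an unadjusted p under 0.05, 2 members were lower in cKO, *Bdh1* and *Acat1*, and 0 were higher, against 7.08% of all genes lower and 6.91% higher. In 3 members, *Bdh1*, *Acat1* and *Echs1* (8.33%), all cKO libraries lay below all WT libraries, as did 10.9% of all genes tested, and in 1 member, *Acadl* (2.78%), they lay above, as did 10.5% of all genes. These shares of members did not exceed those of all genes. The log2 fold change was below 0 in 22 members and above 0 in 14, with a median of −0.10 beside 0.0013 for all genes, and it ran from −0.80 in *Slc27a2* to 1.88 in *Angptl4*. Each member's value and interval is shown in the plot of fold changes, where most intervals span 0.

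**Figure D1:**
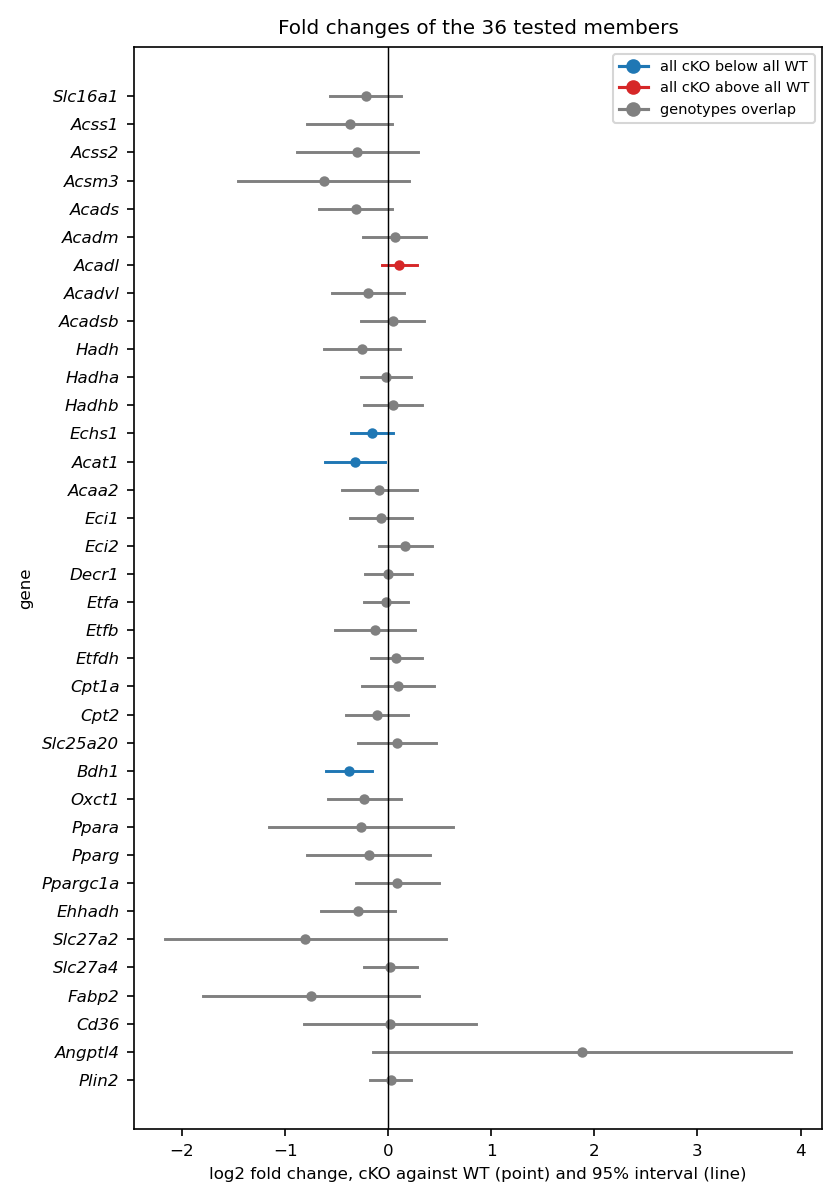
Log2 fold change of cKO against WT on the log2(normalized count + 1) scale (horizontal axis) for the 36 tested members, ordered by role from butyrate uptake at the top to PPAR targets at the bottom. Points are estimates from limma and lines their 95% intervals, with members whose cKO libraries all lie below WT in blue and the member whose cKO libraries all lie above in red; the interval excludes 0 for *Bdh1* and *Acat1*.

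The cKO libraries spread widely in these genes, and on both sides of WT. Library cKO 1 held the lowest of the 6 values for 27 of 36 members (75.0%, against 22.9% of all genes), and cKO 2 held the highest for 21 (58.3%, against 17.4%). Low values in cKO 1 were not confined to the members. This library was lowest for 16 of 23 further mitochondrial oxidation genes, 7 of 10 general mitochondrial genes and 5 of 8 differentiated colonocyte markers. It was lowest for 7 of 23 further PPAR pathway and long-chain activation genes and for 0 of 6 fibroblast markers. Library cKO 2 was highest for 7 of 7 goblet cell markers, but for 6 of 23 further mitochondrial oxidation genes. Relative to the WT mean, the median member lay at a log2 difference of −0.31 in cKO 1, 0.14 in cKO 2 and −0.09 in cKO 3, and at 0.05, −0.08 and 0.02 in WT 1, 2 and 3. The coefficient of variation was larger in cKO than in WT for 32 of 36 members (88.9%, against 56.6% of all genes), with medians of 18.1% in cKO and 7.02% in WT. This spread was not tested, since the members share the same 6 libraries.

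Because cKO 1 and cKO 2 lay on opposite sides of WT, the counts depended on which of them was in the comparison. Without cKO 2, the library with most *Nedd4l* among the knockouts, 18 of 36 members lay below WT in both remaining cKO libraries, as did 19.1% of all genes, and 2 lay above (5.56%, against 18.5% of all genes). Also without cKO 2, 12 members (33.3%, against 8.77% of all genes) had an unadjusted p under 0.05 and a lower level in cKO, 1 was higher (2.78%, against 8.93%), and the median log2 fold change was −0.21 beside −0.0039 for all genes. Without cKO 1, 3 members lay below WT (8.33%, against 15.6% of all genes) and 6 above (16.7%, against 15.1%). At an unadjusted p under 0.05, 1 member was then lower (2.78%, against 6.32% of all genes) and 2 were higher (5.56%, against 5.31%), and the median log2 fold change was 0.02. The counts of members below and above WT without a library were added after the data had been seen.

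**Figure D2:**
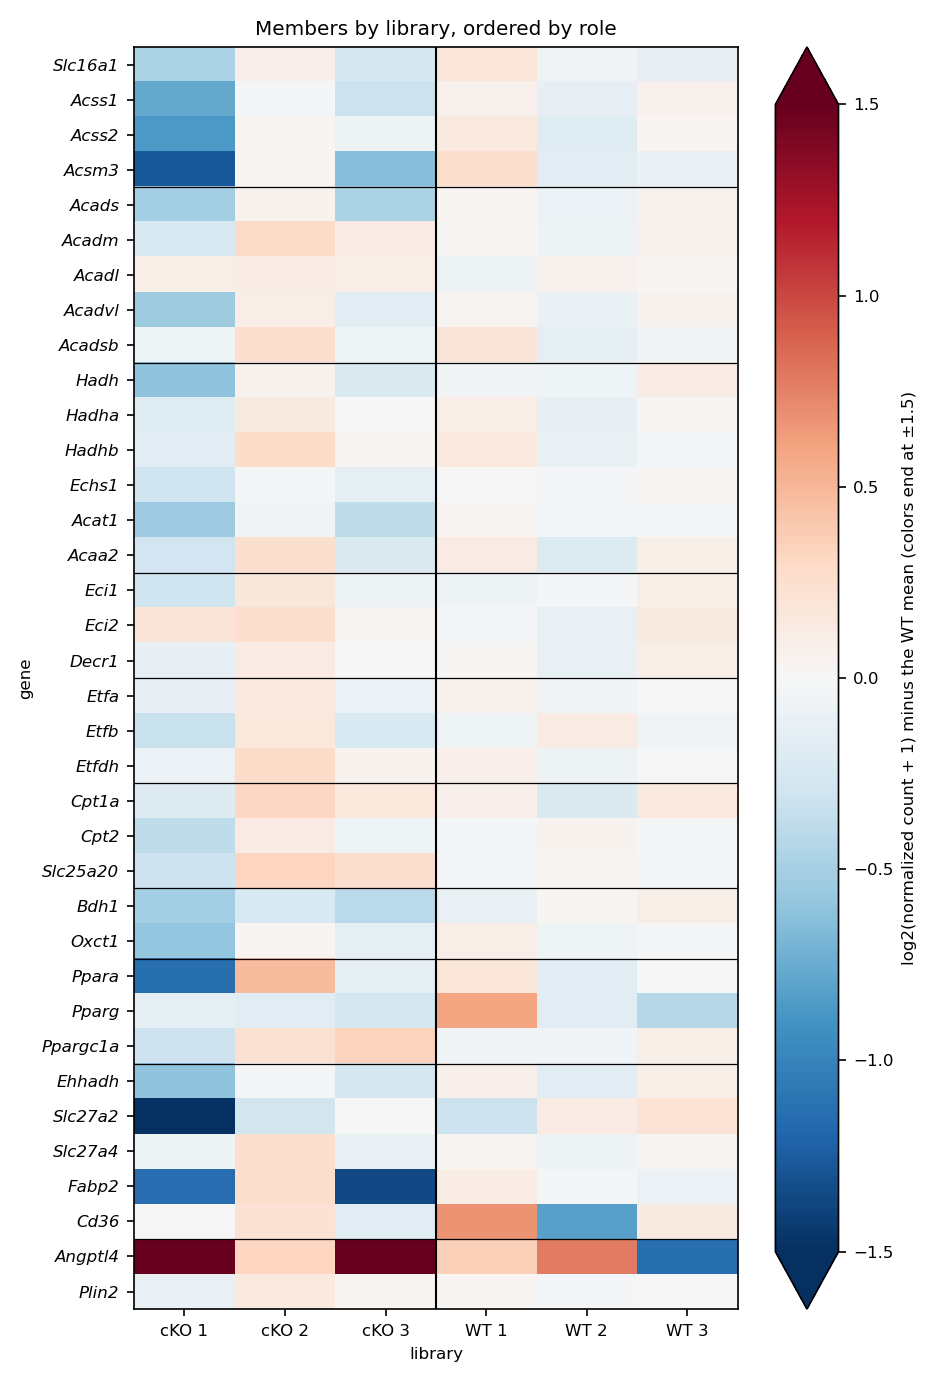
Each tested member (rows, grouped by role) in each library (columns), as log2(normalized count + 1) minus the mean of the 3 WT libraries on the same scale; blue is below and red above the WT mean, and colors end at ±1.5. The cKO 1 column is mostly blue (lowest library for 27 of 36 members), the cKO 2 column mostly pale red (highest for 21), and the WT columns are mostly pale.

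For 3 of the 4 members whose genotypes did not overlap, the stretch of promoter before a RefSeq start is printed here, so that their sequences can be compared beside their values. PPARs bind DNA as partners of the retinoid X receptor at repeats of the motif AGGTCA, which was searched on both strands in the 250 bases before each start (RefSeq, GRCm38.p6, 5′ to 3′ on the gene's own strand); capitals mark the motif. The windows are chr16:31422047-31422296 on the plus strand for *Bdh1*, chr7:140116422-140116671 on the minus strand for *Echs1* and chr1:66863310-66863559 on the minus strand for *Acadl*. *Acat1* is named only.
Bdh1: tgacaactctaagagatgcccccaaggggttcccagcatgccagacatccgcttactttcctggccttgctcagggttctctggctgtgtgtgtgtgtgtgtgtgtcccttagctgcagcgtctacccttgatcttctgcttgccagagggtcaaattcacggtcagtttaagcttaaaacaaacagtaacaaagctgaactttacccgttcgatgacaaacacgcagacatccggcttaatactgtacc
Echs1: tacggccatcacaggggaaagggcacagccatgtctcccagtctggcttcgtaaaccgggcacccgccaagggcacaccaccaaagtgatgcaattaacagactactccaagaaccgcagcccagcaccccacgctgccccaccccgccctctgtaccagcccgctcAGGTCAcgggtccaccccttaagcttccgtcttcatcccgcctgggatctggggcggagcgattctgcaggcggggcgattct
Acadl: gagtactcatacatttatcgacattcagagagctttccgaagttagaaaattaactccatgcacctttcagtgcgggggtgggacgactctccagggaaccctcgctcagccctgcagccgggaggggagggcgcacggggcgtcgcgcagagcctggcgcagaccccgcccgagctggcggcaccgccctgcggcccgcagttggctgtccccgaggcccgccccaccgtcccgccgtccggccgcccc
The *Echs1* window holds the motif once, with its first base 83 bases before the start, and the windows of *Bdh1* and *Acadl* do not hold these letters. The GC content of the printed windows was 49.6% in *Bdh1*, 62.8% in *Echs1* and 68.0% in *Acadl*. RefSeq gives *Bdh1* a further start, whose window (chr16:31428503-31428752, not printed) had a GC content of 60.8% and did not hold the motif either. Over the promoters of 33 members, 10 of 36 windows (27.8%) held the motif, against 4607 of 32851 windows of all genes (14.0%). The members with a match were *Acadm*, *Acadvl*, *Cd36*, *Cpt1a*, *Echs1*, *Fabp1*, *Plin2*, *Pparg* and *Slc27a2*. A direct repeat of the motif with 1 base of any kind between the copies was in 0 of the 36 windows and in 11 of all (0.0335%). A match of letters is a description of the sequence and does not mark a binding site.

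The ketone body enzymes included the member with the smallest p. *Bdh1* (ENSMUSG00000046598, chr16:31422280-31458901) encodes the mitochondrial dehydrogenase that interconverts acetoacetate and β-hydroxybutyrate. It had 1896, 2296 and 2042 normalized counts in cKO 1, 2 and 3 and 2501, 2737 and 2851 in WT 1, 2 and 3. Every cKO library was below every WT library, cKO 2 included, although cKO 2 was the highest library for most members. The mean was 22.9% lower, 2078 ± 203 (SD, n = 3) against 2696 ± 178, and the log2 fold change was −0.38 (SE 0.10, 95% interval −0.60 to −0.16, limma adjusted p = 0.219). An exact permutation test of the 6 values gave a two-sided p of 0.10, the smallest that 3 against 3 libraries allow. The adjusted p from limma ran from 0.0307 with array weights, which give each library its own weight, to 0.512 over the alternatives. These weights were 0.41, 0.56 and 4.39 in cKO 1, 2 and 3, so among the knockouts that fit rested mostly on cKO 3. Of its exon bases, 13.7% overlap the antisense gene *Gm15743*, whose reads could not be told from its own in a library that does not mark strand.

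*Oxct1* (ENSMUSG00000022186, chr15:4026383-4155344) encodes succinyl-CoA:3-oxoacid CoA transferase, which activates acetoacetate for use as a fuel. It had 3109, 4755 and 4257 normalized counts in cKO 1, 2 and 3 and 4998, 4453 and 4563 in WT 1, 2 and 3. Only cKO 1 and cKO 3 lay under the WT values and cKO 2 lay among them, so the genotypes overlapped (log2 fold change −0.23, SE 0.15, limma adjusted p = 0.513). With *BC037032* on the opposite strand it shares 12.6% of its exon bases.

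Among the hydratases, hydroxyacyl-CoA dehydrogenases and thiolases, which carry out the later steps of the cycle, 5 of 6 had a log2 fold change below 0 and cKO 1 was the lowest library for all 6. *Acat1* (ENSMUSG00000032047, chr9:53580522-53610382) encodes the mitochondrial acetoacetyl-CoA thiolase, which splits acetoacetyl-CoA into acetyl-CoA and can also run toward ketone body formation. Its level was 1898, 2694 and 2124 normalized counts in cKO 1, 2 and 3 and 2852, 2748 and 2716 in WT 1, 2 and 3. The WT libraries were close together and cKO 2 lay just under the lowest of them, so the gap between the genotypes was narrow. The log2 fold change was −0.32 (SE 0.13, 95% interval −0.61 to −0.03, limma adjusted p = 0.331; exact permutation p = 0.10).

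*Echs1* (ENSMUSG00000025465, chr7:140105710-140116476) encodes the short-chain enoyl-CoA hydratase, the second enzyme of the cycle for butyryl-CoA. It had 1772, 2144 and 1983 normalized counts in cKO 1, 2 and 3 and 2180, 2147 and 2227 in WT 1, 2 and 3. As in *Acat1*, cKO 2 almost touched the WT libraries, and the log2 fold change was −0.16 (SE 0.09, limma adjusted p = 0.448; exact permutation p = 0.10). In the other 4 members of the group the genotypes overlapped. They are *Hadh*, the dehydrogenase for short- and medium-chain hydroxyacyl-CoA (log2 fold change −0.25), *Hadha* (−0.02) and *Hadhb* (0.05), the subunits of the trifunctional protein for long chains, and *Acaa2*, a mitochondrial 3-ketoacyl-CoA thiolase (−0.09). Their limma adjusted p-values were 0.488 to 0.948.

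The acyl-CoA dehydrogenases, which start each round of β-oxidation, did not share a direction. *Acads* (ENSMUSG00000029545, chr5:115110299-115119346), the short-chain enzyme that acts on butyryl-CoA, had 1523, 2275 and 1582 normalized counts in cKO 1, 2 and 3 and 2248, 2073 and 2272 in WT 1, 2 and 3. Here cKO 2 was the highest of all 6 libraries while cKO 1 and 3 were below all WT libraries (log2 fold change −0.32, SE 0.15, limma adjusted p = 0.391). *Acadl* (ENSMUSG00000026003, chr1:66830839-66863277), the long-chain enzyme, had 3016, 3046 and 3003 in cKO 1, 2 and 3 and 2655, 2937 and 2840 in WT 1, 2 and 3. It was the only member whose cKO libraries all lay above WT, and the coefficient of variation of its cKO libraries was 0.733%. Yet the log2 fold change was 0.11 (SE 0.07, 95% interval −0.06 to 0.27, limma adjusted p = 0.529, exact permutation p = 0.10). The genotypes overlapped for *Acadm*, the medium-chain enzyme (0.06), *Acadsb*, which acts on branched short chains (0.04), and *Acadvl*, the very-long-chain enzyme (−0.20), and 42.9% of the exon bases of *Acadvl* overlap *Dvl2* on the opposite strand. Whether *Acads* and *Acadl* differ from each other in their change was not tested.

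The uptake and activation genes of short-chain fatty acids all had a log2 fold change below 0, with a median of −0.34, and none of the 4 separated the genotypes. *Slc16a1* (ENSMUSG00000032902, chr3:104638668-104658462) encodes MCT1, a monocarboxylate transporter that carries butyrate and lactate. It had 3603, 5281 and 4145 normalized counts in cKO 1, 2 and 3 and 5646, 4818 and 4574 in WT 1, 2 and 3 (log2 fold change −0.22, SE 0.15, limma adjusted p = 0.521). For all 4 genes cKO 1 was the lowest library, and cKO 2 was never the highest. *Acsm3*, a medium-chain acyl-CoA synthetase that is singled out after its values were seen, had the largest coefficients of variation of the group in both genotypes (44.6% in cKO, 16.4% in WT), with 1017, 2523 and 1579 in cKO 1, 2 and 3 and 2953, 2203 and 2297 in WT 1, 2 and 3 (log2 fold change −0.63, SE 0.34, limma adjusted p = 0.446). Its exons overlap those of *Eri2* on the opposite strand over 39.7% of their bases. The acetyl-CoA synthetases *Acss1* of the mitochondrion (−0.37) and *Acss2* of the cytosol and nucleus (−0.30) had limma adjusted p-values of 0.390 and 0.595.

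Genes for the oxidation of unsaturated fatty acids, for electron transfer and for the carnitine shuttle lay near 0. The auxiliary enzymes were *Eci1* (log2 fold change −0.07) and *Eci2* (0.16), isomerases that shift double bonds, and *Decr1* (0.00013), a dienoyl-CoA reductase. *Etfa* (ENSMUSG00000032314, chr9:55454508-55512243), which encodes the α subunit of electron transfer flavoprotein, had 1951, 2356 and 2005 normalized counts in cKO 1, 2 and 3 and 2220, 2053 and 2116 in WT 1, 2 and 3 (log2 fold change −0.02, SE 0.09, 95% interval −0.24 to 0.19). The WT range of *Etfa* lay inside the cKO range. *Etfb*, the β subunit, was at −0.13 and *Etfdh*, the dehydrogenase that hands the electrons to ubiquinone, at 0.08, while 53.0% of the exon bases of *Etfb* are shared with *Gm45233* on the same strand, so its value is uncertain. In the shuttle, *Cpt1a*, which joins fatty acids to carnitine, was at 0.10, *Slc25a20*, the carrier of the inner membrane, at 0.08, and *Cpt2*, which frees them again, at −0.11. For these 9 genes limma adjusted p-values were 0.520 to 1.0, and cKO 2 was the highest library in all of them.

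The regulators did not separate the genotypes. *Ppara* (log2 fold change −0.26), a receptor that drives fatty acid oxidation, *Pparg* (−0.19), a receptor that is abundant in colonic epithelium and fat, and *Ppargc1a* (0.09), which encodes PGC-1α, had limma adjusted p-values of 0.751 to 0.844. *Pparg*, singled out after its values were seen, had 855, 835 and 781 normalized counts in cKO 1, 2 and 3 and 1410, 843 and 695 in WT 1, 2 and 3. Here the spread was in WT, where WT 1 stood above the other 5 libraries, and without WT 1 the log2 fold change was 0.10.

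Of the 6 genes for uptake, binding and peroxisomal oxidation of long-chain fatty acids, *Slc27a2* and *Fabp2* had the lowest estimates of all members. *Slc27a2* (ENSMUSG00000027359, chr2:126552407-126588243) encodes FATP2, a fatty acid transporter that also activates very long chains. It had 40.3, 147 and 177 normalized counts in cKO 1, 2 and 3 and 142, 194 and 206 in WT 1, 2 and 3. The low value of cKO 1 set the estimate of −0.80 (SE 0.56, 95% interval −2.16 to 0.56, limma adjusted p = 0.540), which was −0.14 without that library, and *Gm26697* on the opposite strand overlaps 11.2% of its exon bases. *Fabp2*, an intracellular fatty acid binding protein that is singled out after its values were seen, had 252, 671 and 218 in cKO 1, 2 and 3 and 606, 547 and 528 in WT 1, 2 and 3. With cKO 2 above WT and cKO 1 and 3 far below, the log2 fold change was −0.75 (SE 0.43, limma adjusted p = 0.466; exact permutation p = 0.40). Without cKO 2 it was −1.25 with a limma adjusted p of 0.0233, the lowest among alternatives that reached up to 0.740.

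The remaining genes of that group overlapped between genotypes. *Ehhadh*, the peroxisomal bifunctional enzyme, was at a log2 fold change of −0.29 (limma adjusted p = 0.422). *Slc27a4*, which encodes the transporter FATP4, was at 0.02, and *Cd36*, a scavenger receptor and fatty acid translocase, was also at 0.02, with WT values from 62.1 to 175 on both sides of the cKO values. *Fabp1*, the liver-type binding protein, was listed at 0 in 5 libraries and at 2.21 normalized counts in cKO 2.

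*Angptl4* (ENSMUSG00000002289, chr17:33773750-33781575), a secreted inhibitor of lipoprotein lipase and a PPAR target, had the largest estimate among members. It was at 132, 15.5 and 50.5 normalized counts in cKO 1, 2 and 3 and at 15.8, 21.6 and 4.99 in WT 1, 2 and 3. High values in cKO 1 and 3 stood beside a value in cKO 2 that lay within the WT range, the reverse of the order seen for most members. The log2 fold change was 1.88 (SE 0.85, 95% interval −0.15 to 3.90, limma adjusted p = 0.379; exact permutation p = 0.30). *Plin2*, the coat protein of lipid droplets, was at 0.02 with an SE of 0.09, and the coefficient of variation of its WT libraries was 2.02%.

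**Figure D3:**
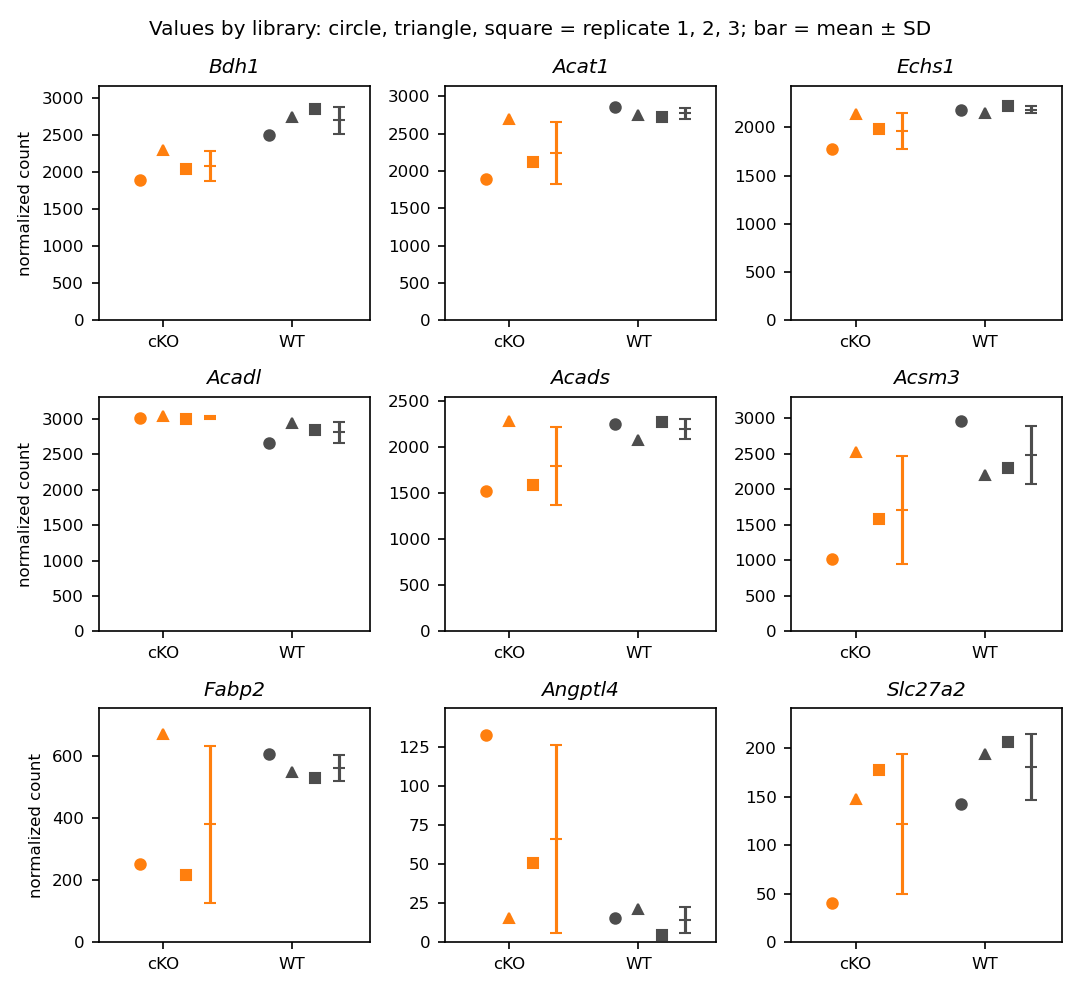
Normalized counts (vertical axes, from 0) of 9 members, with circle, triangle and square for replicates 1, 2 and 3 of cKO (orange) and WT (gray) and a bar for mean ± SD (n = 3). The genotypes do not overlap for *Bdh1*, *Acat1*, *Echs1* and *Acadl*, and cKO 2 (triangle) lies at or above WT for *Acads* and *Fabp2*.

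Levels between genes were compared per kilobase of the gene length that the table gives. For *Echs1* (8286 bases) and *Acss2* (10163 bases) this length was that of all annotated exons merged, which can exceed the length of a single transcript. Its effect on the order was not tested. In WT the highest normalized counts per kilobase were 1402 ± 71.6 (SD, n = 3) for *Acadl*, 1262 ± 77.8 for *Oxct1*, 1161 ± 46.0 for *Etfa*, 1133 ± 127 for *Slc16a1* and 968 ± 47.8 for *Acads*. The first 4 of these overlapped with their neighbors in the order, whereas *Slc16a1* and *Acads* were apart by a narrow margin. *Acat1* followed further down at 738 ± 19.0 and *Bdh1* directly after it at 694 ± 45.8. At the other end were *Slc27a2* (48.1 ± 9.02), *Cd36* (33.2 ± 15.7), *Ppara* (24.4 ± 2.99), *Angptl4* (4.30 ± 2.56) and *Fabp1*, listed at 0. In 27 of the 36 pairs of neighbors the WT libraries overlapped, so the order is coarse.

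**Figure D4:**
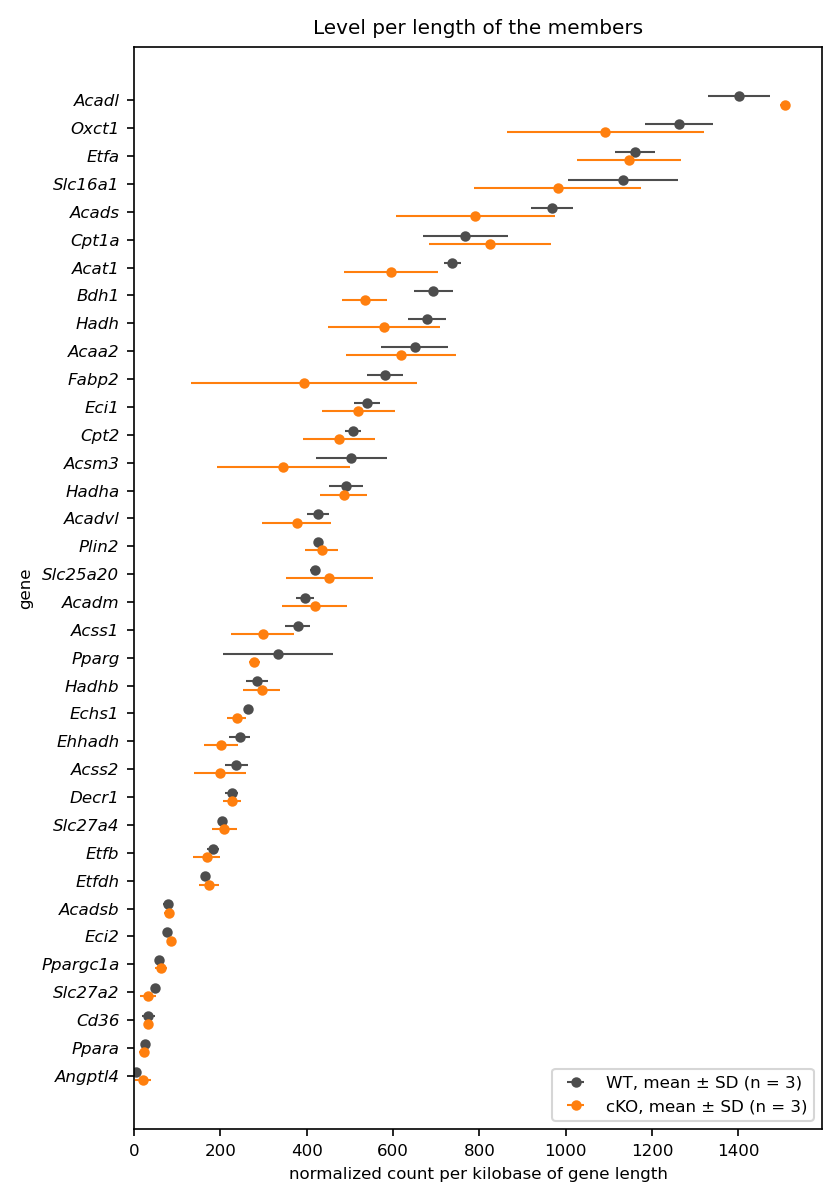
Normalized count per kilobase of gene length (horizontal axis) for the 36 members with a WT mean above 0, ordered by WT level, as mean ± SD (n = 3) for WT in gray and cKO in orange. *Acadl* is highest at 1402 in WT, *Angptl4* lowest at 4.30, and the cKO bars are the wider ones for most genes.

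The summed level of the 37 members was 46125, 64362 and 54827 normalized counts in cKO 1, 2 and 3 and 62952, 56929 and 60249 in WT 1, 2 and 3. In bulk tissue fewer cells of a type and less RNA per cell cannot be told apart, so marker lists were summed beside it. Per epithelial marker count the members stood at 0.217, 0.259 and 0.234 in cKO and 0.249, 0.228 and 0.256 in WT, with cKO 1 lowest and cKO 2 highest as before. The 8 markers of differentiated colonocytes summed to 70162, 112218 and 74916 in cKO 1, 2 and 3 and to between 106462 and 128356 in WT, so the sum was low in cKO 1 and cKO 3, as it was for the members. Of these 8 genes, 7 had a log2 fold change below 0 and 0 separated the genotypes. The genes differed among themselves: *Aqp8* had 1265, 10676 and 4531 in cKO against 6011 to 12762 in WT, while *Car1* in cKO 1 (6379) lay within its WT range of 3344 to 7647 and *Krt20* in cKO (17166 to 18741) lay within 14216 to 18815. General mitochondrial genes included the citrate synthase gene *Cs* and *Vdac1*. They summed to 47484 to 52827 in cKO, below the 54235 to 58129 in WT. The log2 fold change was below 0 in 10 of 10, against 49.8% of all genes tested. All cKO libraries lay below all WT libraries for 6 of 10, against 10.9% of all genes. Per mitochondrial marker count the members stood at 0.971 to 1.22 in cKO and 0.979 to 1.16 in WT, so the genotypes overlapped.

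Other cell types were also unevenly represented. Neutrophil markers summed to 6076, 139 and 938 normalized counts in cKO 1, 2 and 3 and to between 95.4 and 120 in WT, in the same order over the cKO libraries as *Angptl4* and in the opposite order to the median member. Fibroblast markers were at 42446, 20966 and 22452 in cKO and 10564 to 18057 in WT, and 6 of 6 had a log2 fold change above 0. Goblet cell markers ranged from 96494 in cKO 1 to 450773 in cKO 2, with WT between 152384 and 312599. Adipocyte markers stayed low, at 241 to 339 in cKO and 157 to 430 in WT over 7 genes, with *Adipoq* at 0 in 2 libraries and *Plin1* at 0 in 4. The small intestinal list summed to 1299 to 2254 in cKO and 1186 to 1656 in WT over 5 genes, nearly all of it *Apob* (1116 to 2087 over the 6 libraries). In that list *Fabp6* had 27.8 to 163 normalized counts and *Lct* 2.06 to 4.42, whereas *Apoa4* was at 0 in 4 libraries and *Sis* at 0 in 3, both at most 2.88 elsewhere. The part of cell composition in the members' values was not tested.

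**Figure D5:**
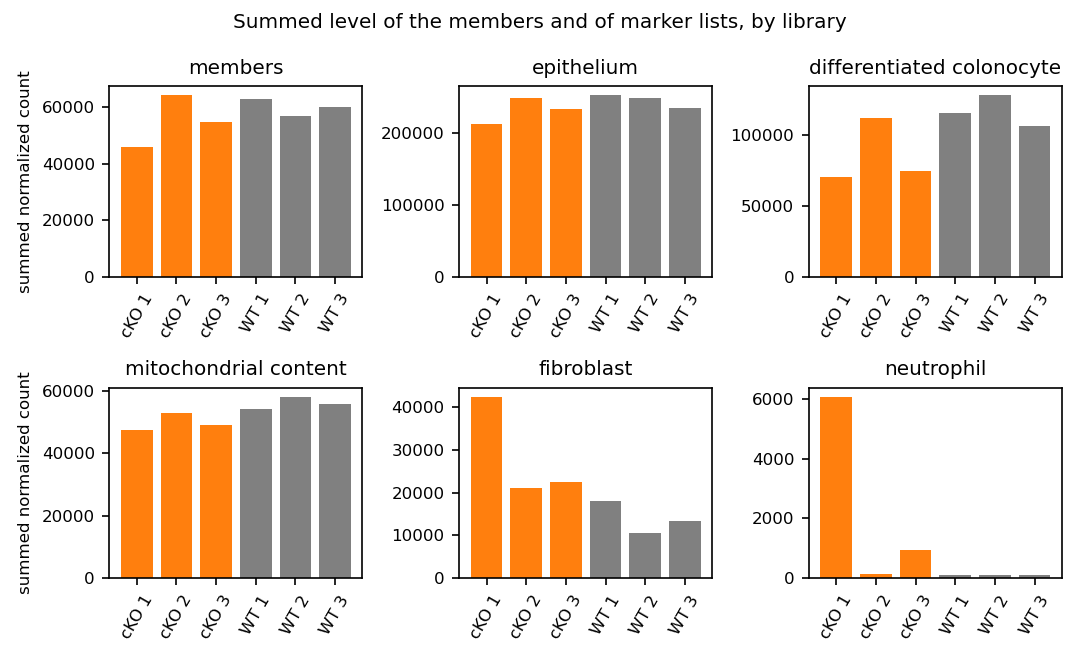
Summed normalized counts (vertical axes, from 0) of the 37 members and of 5 marker lists in each library, cKO in orange and WT in gray. The sums of members and of differentiated colonocyte markers are lowest in cKO 1, mitochondrial genes lie below WT in all cKO libraries (47484 to 52827 against 54235 to 58129), and neutrophil markers reach 6076 in cKO 1.

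Further genes of these pathways were counted from a list of 82, of which 79 were in the table and 69 were tested. With limma 0 had an adjusted p under 0.05. At an unadjusted p under 0.05, 7 of 69 were lower and 2 of 69 higher in cKO, against 7.08% of all genes lower and 6.91% higher. The genotypes did not overlap for 10 genes below and 5 above WT (14.5% and 7.25%, against 10.9% and 10.5% of all genes), and the median log2 fold change was −0.05.

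Of the genes named from this list by their p, 4 had all cKO libraries below WT. They were *Acad10*, an acyl-CoA dehydrogenase family member (log2 fold change −0.65, SE 0.15), *Acsf3*, a mitochondrial malonyl-CoA synthetase (−0.32, SE 0.10), *Ucp2*, a carrier of the inner mitochondrial membrane (−0.28, SE 0.09), and *Ivd*, isovaleryl-CoA dehydrogenase of leucine breakdown (−0.50, SE 0.17), with limma adjusted p-values of 0.211 to 0.296. Other genes of interest lay closer to 0. *Slc5a8*, the sodium-coupled transporter of butyrate, had 4022, 7831 and 6758 normalized counts in cKO 1, 2 and 3 and 7311, 6567 and 7646 in WT 1, 2 and 3, again with cKO 1 lowest and cKO 2 highest (log2 fold change −0.26, limma adjusted p = 0.644). The receptor gene *Ppard* was at 0.05, and *Pdk4*, a PPAR target that restrains pyruvate oxidation, was at 0.15 from 5.99 to 14.4 normalized counts per library.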

How the data were processed

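RNA from the colon of 3 cKO and 3 WT mice was isolated with TRIzol and made into libraries with a NEBNext Ultra RNA kit that does not mark strand. Per the submitters' processing notes, reads were handled with HISAT2 2.0.5 and featureCounts 1.5.0-p3. These notes name a human genome build, whereas the gene identifiers are mouse ones. Of 27202 identifiers, 27164 are in release M21 of the GENCODE mouse annotation, 97.2% of these with identical GRCm38 coordinates (33 of the 37 members). The strand setting of the counting was not given in the sources used here.

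The authors deposited normalized counts, a signal in which each library's read counts per gene are scaled by a factor for that library. The smallest steps of the libraries were 0.900 to 1.11 normalized counts, and 100.0% of values were whole multiples of them (within 0.01). The number of reads behind a step was not established, so no counting interval is given. The deposited genotype means (2 columns), fold changes, p-values and adjusted p-values of the authors' own comparison were not used.

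Values were transformed to log2(value + 1), which understates the change of low genes. Genes with a mean of at least 10 were fitted in limma 3.58.1 (R 4.3.3; lmFit, then eBayes with trend and robust settings), cKO against WT without covariates, with Benjamini-Hochberg adjustment over all 16246 genes and a threshold of 0.05. Single genes were also compared by two-sided exact permutation of the 6 libraries. On simulated data (10 runs, 200 of 16246 genes changed), the fit recovered 51.1% of the genes changed by 1 on the log2 scale and 77.4% of those changed by 2, and 5.22% of its calls were genes left unchanged. In the measured libraries the coefficient of variation was larger in cKO than in WT for 56.6% of all genes. There *Nedd4l*, at a log2 fold change of −0.99, did not pass the threshold. Whether the recovery rates hold for the measured libraries was not tested. Figures were drawn with matplotlib 3.10.9.

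The members and all lists were chosen with earlier results of these data known. Per-library values are given for members whose genotypes did not overlap or whose unadjusted p was under 0.05, for the 5 highest per kilobase and for the most extreme fold changes. Of the further pathway genes, those with the smallest p and *Slc5a8*, *Ppard* and *Pdk4* are named, and some results under this rule are not reported here. Members outside this rule are marked as chosen after their values were seen. Of the marker lists, only sums and markers at 0 were planned. The single values of *Aqp8*, *Car1*, *Krt20*, *Apob*, *Fabp6* and *Lct* were added outside the rule, after they had been seen. Endothelial (summed level 1510 to 2831 normalized counts in cKO, 1103 to 1627 in WT), macrophage (8144 to 10038, 4771 to 8216), smooth muscle (5395 to 10588, 4824 to 20465), T cell (258 to 343, 250.1 to 344), B and plasma cell (30224 to 41819, 21194 to 40458) and distal colon Hox lists (3111 to 5659, 4811 to 5524) were summed as well. The Hox sum was 3111, 5659 and 5380 in cKO 1, 2 and 3, so that cKO 1 lay below every other library. Alternatives were another scaling, pseudocount and filter, array weights, a replicate block and leaving out each library. Exon overlaps with other genes that are not given beside a member covered at most 5.24% of its exon bases for each overlapping gene.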

Additional observations from a re-analysis of the deposited data

How the results depend on the processing

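Under quantile normalization, a pseudocount of 5 or a minimum mean of 50, 0 members had a limma adjusted p under 0.05, as in the reported fit. Without a filter on low values 0 members were called as well, but 23 genes were called lower and 7 higher over the whole table. With array weights 369 genes were called lower and 262 higher, among them 1 member, *Bdh1* (log2 fold change −0.40, limma adjusted p = 0.0307), and 8 members were lower (22.2%, against 13.1% of all genes) and 1 was higher (2.78%, against 12.8%) at an unadjusted p under 0.05. The weights were 0.41, 0.56 and 4.39 in cKO 1, 2 and 3, so among the knockouts these calls rested mostly on cKO 3. Array weights also turned the sign for *Acadsb* (−0.027), *Decr1* (−0.015), *Slc27a4* (−0.073) and *Cd36* (−0.17), and quantile normalization turned it for *Cd36* (−0.066). Leaving out 1 library at a time gave 0 to 52 genes called lower and 0 to 70 called higher. The extremes came without cKO 2, and without cKO 1 there were 22 lower and 2 higher. Among members, 0 to 1 were called lower (*Fabp2* without cKO 2), 1 to 12 were lower and 0 to 2 higher at an unadjusted p under 0.05, 3 to 18 lay wholly below WT and 1 to 6 wholly above, and the median log2 fold change ran from −0.21 without cKO 2 to 0.024 without cKO 1. Of all genes, 4.55% to 8.77% were lower and 4.88% to 8.93% higher at that p in these fits, and 14.4% to 19.1% lay wholly below and 14.6% to 18.5% wholly above WT. For 18 of 36 members, none with a log2 fold change larger than 0.26 in size, at least 1 alternative turned the sign. With 1 library left out, the ranges were −0.053 to 0.21 for *Acadm*, −0.060 to 0.14 for *Acadsb*, −0.096 to 0.066 for *Hadha*, −0.066 to 0.15 for *Hadhb*, −0.25 to 0.014 for *Acaa2*, −0.19 to 0.046 for *Eci1*, −0.064 to 0.063 for *Decr1*, −0.11 to 0.030 for *Etfa*, −0.020 to 0.16 for *Etfdh*, −0.013 to 0.24 for *Cpt1a*, −0.23 to 0.029 for *Cpt2* and −0.035 to 0.28 for *Slc25a20*. They were −0.63 to 0.17 for *Ppara*, −0.41 to 0.10 for *Pparg*, −0.039 to 0.29 for *Ppargc1a*, −0.091 to 0.081 for *Slc27a4*, −0.39 to 0.35 for *Cd36*, −0.038 to 0.089 for *Plin2*, −0.46 to 0.023 for *Slc5a8*, −0.048 to 0.14 for *Ppard* and −0.22 to 0.35 for *Pdk4*. The cause of these shifts was not tested. Libraries with the same number did not deviate together (r of deviations −0.029, −0.090 and −0.056). A limma fit with the replicate block gave 0 members called and a median of −0.10, so it changed no call. At an unadjusted p under 0.05 in that fit, 2 members were lower (5.56%, against 6.48% of all genes) and 0 were higher (0.0%, against 7.41%). The planned edgeR and DESeq2 fits were not run, because whole reads were not recovered for every library.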
